A study of Mus musculus with 23 samples.

Results

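The genes described here encode the subunits of the transcription factor NF-kB and the proteins that hold it in check. They were taken by symbol, namely Nfkb1, Nfkb2, Rela and Relb for the subunits, Nfkbia, Nfkbib and Nfkbie for the cytoplasmic inhibitors, Nfkbiz for a nuclear inhibitor-like protein, and Tnfaip3 and Tnip1 for the A20 complex. Each symbol matched a single Ensembl identifier, which gave 10 genes of the 55487 in the count table, and all 10 were among the 15748 genes that passed the filter on low counts.

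RNA was sequenced from mouse embryonic fibroblasts (MEFs) in primary culture, all of strain FVB/NJ and grown in medium with serum. They received solvent (vehicle) or dexamethasone (Dex), an agonist of the glucocorticoid receptor (GR), at 10 nM for 5 h. Of the 4 genotypes, GRwt/wt cells carried the unmodified receptor, GRD/D cells had an alanine replaced by threonine in the DNA-binding domain, GRL/L cells had an isoleucine of the ligand-binding domain replaced by alanine, and GRD+L/D+L cells had both changes, on both alleles. The 8 groups of genotype and treatment held 3 libraries each, except GRD/D vehicle with 2, and per the series design each genotype was represented by 3 cultures from different mice. All comparisons between genotypes are thus comparisons between cultures of different embryos, and gene counts cannot show a point change in GR. Values are CPM, counts relative to the library's total after TMM scaling, from a depth of 16.5 to 23.1 M counts per library.

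In resting cells, NF-kB dimers are kept in the cytoplasm by IkB proteins. Receptors of cytokines and of microbial products activate the IKK kinase, which marks IkB for degradation, and the freed dimers enter the nucleus and switch on genes of inflammation, survival and adhesion. Several of these target genes encode inhibitors, such as IkB-alpha (Nfkbia) and the ubiquitin-editing enzyme A20 (Tnfaip3), so that the pathway limits itself. Glucocorticoids are widely used to dampen NF-kB output in inflammation, and Nfkbia is itself known as a glucocorticoid-induced gene in several cell types.

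The promoters are shown because autoregulation runs through NF-kB sites. RefSeq promoter windows (GRCm38.p6, 250 bases before to 50 bases after a start site) were at hand for 7 of the 10 genes, in 10 windows. They were searched on both strands for the letters GGNNNTTCC, a core of many NF-kB sites. A match was present in 8 of the 10 windows, belonging to 5 genes (Tnfaip3, Tnip1, Nfkbia, Nfkbie and Nfkb2), beside 18.5% of all 32851 windows. The windows of Rela and Nfkbib held no match. The 250 bases upstream of the start of Nfkbia (chr12:55492648-55492897, minus strand), with the matches in capitals, read as follows.
Nfkbia: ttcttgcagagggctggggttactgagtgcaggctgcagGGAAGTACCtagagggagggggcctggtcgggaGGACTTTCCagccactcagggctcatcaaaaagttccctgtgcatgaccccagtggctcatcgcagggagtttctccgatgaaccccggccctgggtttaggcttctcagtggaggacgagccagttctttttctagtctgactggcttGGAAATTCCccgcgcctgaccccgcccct
The 3 matches began 211, 178 and 29 bases before the start site. Short stretches around matches of the A20 complex genes and of Nfkbie, in the same notation, were these.
Tnfaip3 (chr10:19015411-19015459, minus strand): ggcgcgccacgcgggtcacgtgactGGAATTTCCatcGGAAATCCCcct
Tnip1 (chr11:54962964-54963022, minus strand): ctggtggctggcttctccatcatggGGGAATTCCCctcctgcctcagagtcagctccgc
Nfkbie (chr17:45555570-45555628, plus strand): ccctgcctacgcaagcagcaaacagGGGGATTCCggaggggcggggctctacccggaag
In Tnfaip3, 2 matches lay 3 bases apart, within 24 bases of the start site. In Tnip1, the run in capitals holds 2 overlapping matches, since its letters fit the search on either strand. A glucocorticoid response element was searched as AGAACA and TGTTCT separated by 3 bases with at most 2 mismatches; it was found in 0 of the 10 windows and in 1.84% of all windows. A match describes letters in these windows and not binding.

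Set per kilobase (kb) of exon, so that genes can be compared, levels in CPM per kb ordered the genes with Rela at the top (median over the 23 libraries 21.4, range 19.1 to 38.2). Tnip1 came next with a median of 14.2 CPM per kb, and Nfkb2 with 9.96. These steps were clear in part, since Rela was above Tnip1 and Tnip1 above Nfkb2 in 23 of 23 libraries, whereas Nfkb2 was above the next gene, Nfkbia (median 8.44 CPM per kb), in 15. Neighbours in the middle of the order did not separate in every library, with Nfkbib at 6.46, Nfkb1 at 5.74, Nfkbiz at 5.69 and Relb at 3.95 CPM per kb. Nfkbie (median 2.09 CPM per kb) and Tnfaip3 (0.909) closed the order, and Nfkbie was above Tnfaip3 in 23 of 23 libraries. Rela, the main activating subunit, was thus at a higher level per length than any of the inhibitors in every library. Counts ranged from 45 for Tnfaip3 in its lowest library to 2130 for Rela in its highest.

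The genes also differed in how much they varied. Nfkb1, which encodes the p105 precursor of p50, spanned 1.67-fold between its lowest and highest library, whereas Nfkbiz spanned 6.41-fold and Tnfaip3 4.59-fold. In the plot of levels by library, Nfkbiz is the gene whose genotypes lie farthest apart.

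**Figure D1:**
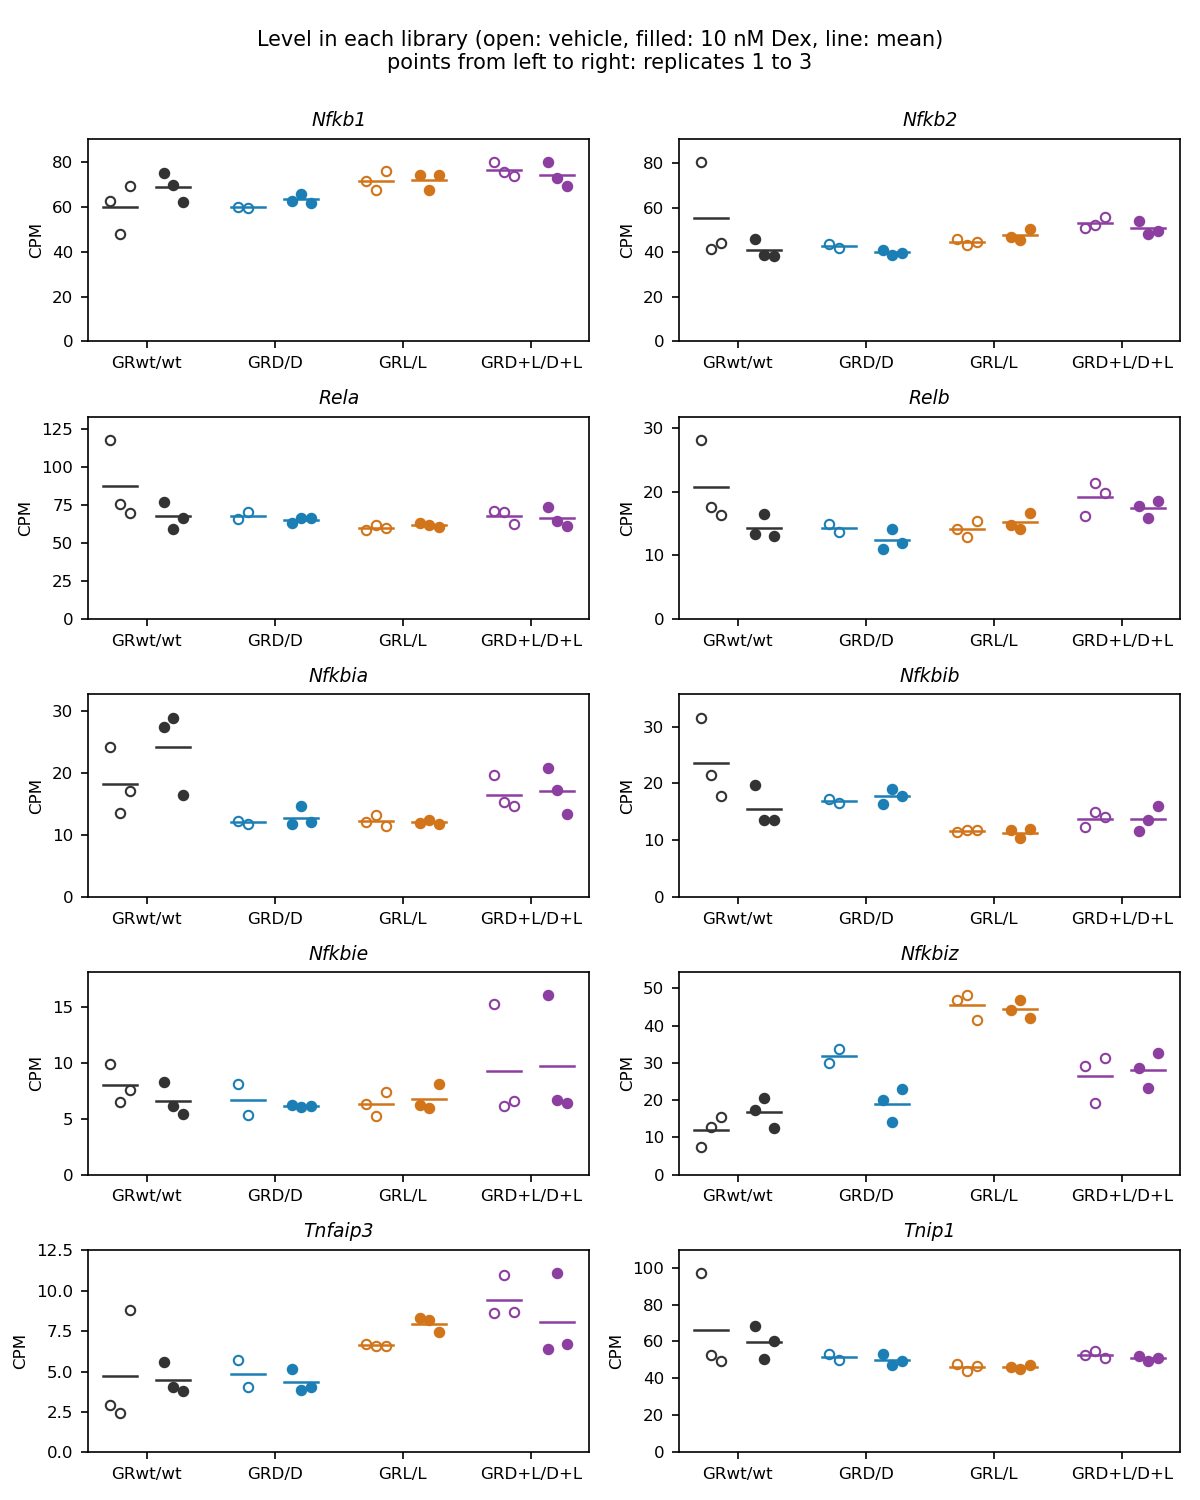
Level of each gene (CPM, linear axis from 0) in each of the 23 libraries, by genotype, with vehicle open, Dex filled and the group mean as a line. Nfkbiz lies between 41.6 and 48.1 CPM in all GRL/L libraries and between 7.5 and 20.6 CPM in all GRwt/wt libraries, and the GRwt/wt vehicle library drawn at the left is the highest of all for Nfkb2, Rela, Relb, Nfkbib and Tnip1.

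Some libraries stood apart and touch the values below. GRwt/wt vehicle replicate 1 reached a Spearman correlation of at most 0.916 with any other library, whereas each of the other 22 reached at least 0.973 with another. Its deviation from the median library followed the GC content of transcripts (Spearman rho 0.688 across genes, −0.196 to 0.323 in the others). Among the NF-kB genes, the 5 with a transcript GC content of 56.8 to 59.4% (Nfkb2, Rela, Relb, Nfkbib and Tnip1) were 1.62- to 1.90-fold higher in that library than the mean of GRwt/wt vehicle replicates 2 and 3, while Nfkbiz and Tnfaip3, at 50.1 and 47.1% GC, were at 0.531- and 0.520-fold. Fibroblast markers summed to 36000 to 73500 CPM, with 10 of 10 detected. Skeletal muscle markers summed to 267 CPM in GRwt/wt vehicle replicate 1, the highest of all libraries (median 24.7), and to at most 173 CPM in GRwt/wt Dex. Macrophage markers (10 of 10 above 1 CPM somewhere, none at 0 throughout) summed to 4430 CPM in GRwt/wt vehicle replicate 3, against 15.7 to 91.8 in the other GRwt/wt libraries, 244 to 1490 in GRD/D and 271 to 683 in GRL/L. The GRD+L/D+L libraries held 6.84 to 76.6 CPM of them.

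**Figure D2:**
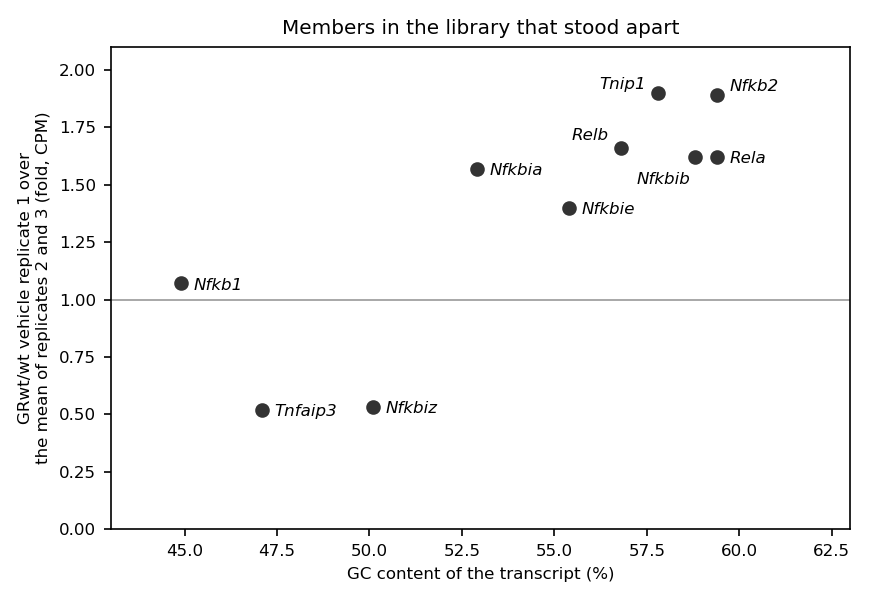
Level of each gene in GRwt/wt vehicle replicate 1 over the mean of replicates 2 and 3 (fold of CPM, y axis) against the GC content of its transcript (percent, x axis). The 5 genes above 56% GC lie between 1.62 and 1.90, and Nfkbiz and Tnfaip3 lie near 0.5.

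Whether Dex changed the NF-kB genes was asked within each genotype, with a gene called at an adjusted p of at most 0.05 and a log2 fold change of at least 1 in size. With the unmodified receptor, Dex raised the GR target Fkbp5 from 31.0 ± 12.9 to 348 ± 36.9 CPM (SD, n = 3 each; log2 fold change 3.49, adjusted p 2.67e-06). Tsc22d3, which encodes the anti-inflammatory protein GILZ, rose too (log2 fold change 1.92, adjusted p 0.00272). Dusp1, which encodes a phosphatase of MAP kinases, passed by adjusted p at a log2 fold change of 0.98 (adjusted p 0.0335), just short of the size rule. None of the 10 NF-kB genes was called in that contrast, in which 0.159% of all genes tested were. At an unadjusted p under 0.05 there were 4 of the 10, beside 15.6% of all genes (Nfkb2, Nfkbib, Rela and Relb), and DESeq2 called none either. That count ranged from 2 (9.89 and 14.2% of all genes), without Dex replicate 2 or vehicle replicate 1, to 7 (23.1%), without vehicle replicate 3. In each of the mutants Dex called 0 of 10, and 0% of all genes, and DESeq2 called none of the 10. At an unadjusted p under 0.05 GRD/D had 1 of the 10 (0.978% of all genes) and GRL/L had 0 (0.273%), as did the double mutant (0.343%). Fkbp5 measured 32.6 and 31.1 CPM with vehicle and 118, 94.8 and 93.9 with Dex in GRD/D, without overlap, though its log2 fold change of 1.68 ± 0.29 did not pass (adjusted p 0.137). Tsc22d3 and Dusp1 were at 0.18 and −0.06 there (adjusted p 1 in each). Fkbp5 had a log2 fold change of 0.12 in GRL/L, and 0.07 in the double mutant (adjusted p 1 in each).

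Among the inhibitors, Nfkbia measured 24.1, 13.6 and 17.0 CPM in the GRwt/wt vehicle libraries (replicates 1 to 3) and 27.4, 28.9 and 16.4 CPM in the GRwt/wt Dex libraries. Dex replicates 1 and 2 were above every vehicle library, and Dex replicate 3 fell among them, so the groups overlapped. The log2 fold change was 0.41 ± 0.22 (SE; adjusted p 0.395), 0.66 without vehicle replicate 1 (adjusted p 0.141), 0.22 without vehicle replicate 2 (adjusted p 0.555), 0.82 without vehicle replicates 1 and 3 (adjusted p 0.29) and 0.70 with offsets for GC content and length (adjusted p 0.136). In the mutants, Nfkbia differed little between treatments. It was at 12.3 and 11.7 CPM in GRD/D vehicle and 11.7, 14.7 and 12 in GRD/D Dex, and between 11.4 and 13.2 in all 6 GRL/L libraries. The GRD+L/D+L libraries held 19.6, 15.3 and 14.6 CPM with vehicle and 20.8, 17.3 and 13.3 with Dex. The log2 fold changes of these mutants, in the same order, were 0.094 ± 0.25, −0.020 ± 0.23 and 0.055 ± 0.22, and the response of no mutant differed from that of GRwt/wt in the test of the difference (adjusted p 0.909, 0.869 and 0.977).

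Nfkbib encodes IkB-beta, a slower-acting inhibitor of the same dimers. It measured 31.6, 21.4 and 17.7 CPM in GRwt/wt vehicle and 19.7, 13.5 and 13.5 in GRwt/wt Dex. The Dex libraries were on the whole lower, with replicate 1 of Dex inside the vehicle range. The log2 fold change was −0.60 ± 0.19 (adjusted p 0.176), and −0.33 without vehicle replicate 1 (adjusted p 0.386), the library in which genes rich in GC were high. It passed by adjusted p, though not by size, in 2 of 33 alternatives, at −0.72 without vehicle replicate 3 (adjusted p 0.0496) and at −0.58 with the replicate number as a block (adjusted p 0.0411). For the subunits Nfkb2, Rela and Relb the log2 fold changes were −0.43, −0.37 and −0.53 with all libraries, and −0.058, −0.10 and −0.24 without vehicle replicate 1. Nfkb1 was at 0.20 ± 0.12, a value that turned to −0.37 with GC and length offsets. Nfkbie, which encodes IkB-epsilon, was at −0.27 ± 0.36. Tnfaip3 was at −0.079 ± 0.36, a value that ran from −0.40 without vehicle replicate 2 to 0.79 without vehicle replicate 3 (adjusted p 0.462 and 0.0957). Tnip1, whose product recruits A20 to its targets, was at −0.15 ± 0.18, and ran from −0.32 without vehicle replicate 2 to 0.22 without vehicle replicate 1 (adjusted p 0.308 and 0.282).

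Nfkbiz encodes IkB-zeta, an inducible nuclear protein that acts as a cofactor of p50 at a subset of target genes. In GRwt/wt it measured 7.50, 12.8 and 15.4 CPM with vehicle and 17.3, 20.6 and 12.5 with Dex. In GRD/D it measured 30.0 and 33.6 CPM with vehicle and 20, 14.1 and 22.9 with Dex. All GRD/D Dex libraries were thus below both GRD/D vehicle libraries, and in GRwt/wt each Dex library was above the vehicle mean while the ranges overlapped. The log2 fold changes were 0.49 ± 0.25 in GRwt/wt (adjusted p 0.359) and −0.74 ± 0.27 in GRD/D (adjusted p 1). The difference of the responses, −1.24 ± 0.37, did not pass (adjusted p 0.688; 0.196 to 1 over the alternatives run), in a contrast that called 0 of 10 and 0% of all genes.

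No NF-kB gene was called when the response of GRL/L or that of GRD+L/D+L was set against the GRwt/wt response, where 0.0254% of all genes were called in each. DESeq2 called none of the 10 in any of the 3 differences, and 2, 2 and 1 of the 10 had an unadjusted p under 0.05 (7.11, 6.29 and 5.05% of all genes), with the double mutant last. As a looser description, the Dex and vehicle libraries did not overlap for 0 of the 10 genes in GRwt/wt (9.46% of all genes), 3 for GRD/D (21.3%), 1 for GRL/L (4.84%) and 0 for the double mutant (3.37%). The 3 were Nfkb1, Nfkb2 and Nfkbiz, and the 1 was Tnfaip3.

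**Figure D3:**
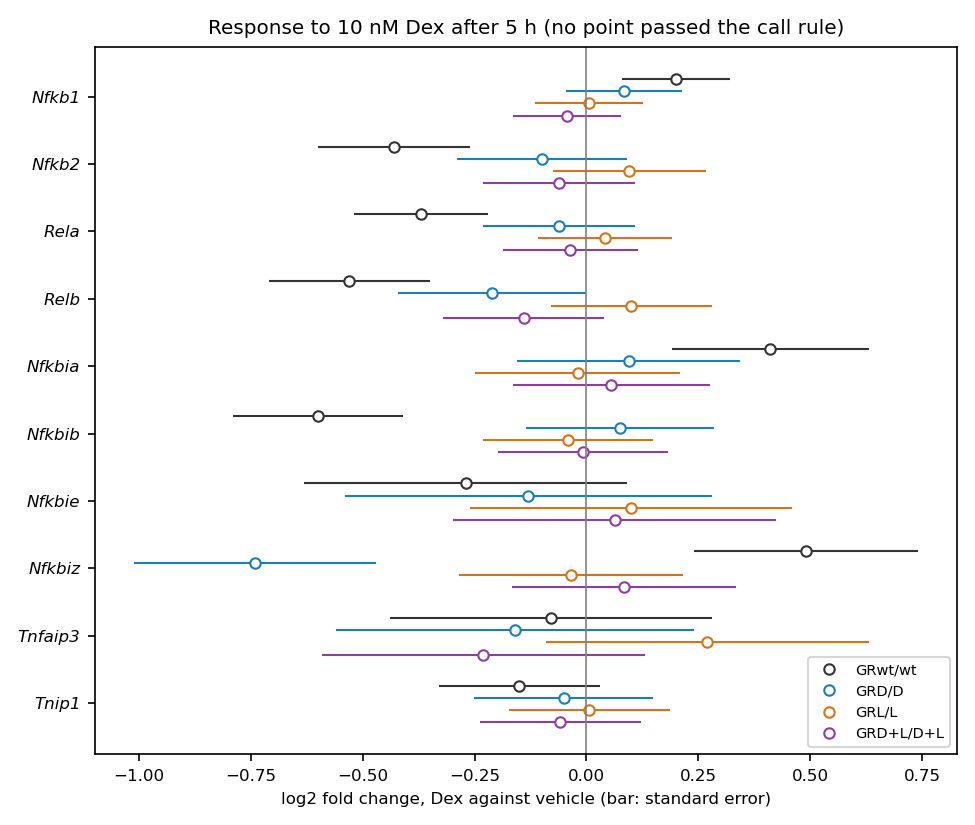
Log2 fold change of Dex against vehicle for each gene (x axis, point and standard error) in the 4 genotypes. No point passed the call rule, and in GRwt/wt the values run from −0.60 for Nfkbib to 0.49 for Nfkbiz.

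The balance of the cytoplasmic inhibitors within a library does not depend on scaling. The ratio of Nfkbia to Nfkbib, both in CPM per kb, was 1.03, 0.856 and 1.29 in GRwt/wt vehicle and 1.87, 2.88 and 1.63 in GRwt/wt Dex. The groups did not overlap, and GRwt/wt vehicle replicate 1 lay between its fellow replicates. On the log2 scale the ratio was 0.98 higher with Dex, beside SDs of 0.43 (Dex) and 0.30 (vehicle). In GRD/D the ratio was 0.965 and 0.957 with vehicle and 0.910 to 1.05 with Dex. GRL/L had ratios of 1.31 to 1.51 with vehicle and 1.34 to 1.62 with Dex, and the double mutant had 1.38 to 2.12 and 1.12 to 2.42, so vehicle and Dex overlapped in all 3 mutants. The ratio of Nfkbia to Rela did not overlap in GRwt/wt either (0.342 to 0.466 with vehicle, 0.468 to 0.924 with Dex), whereas the summed inhibitors over Rela did (0.829 to 0.936 and 0.837 to 1.35). These 3 ratios were chosen with values known, and the exact two-sided permutation test gave p 0.1 for each of the first 2 in GRwt/wt, the smallest that 3 against 3 libraries allow, and 0.6 after adjustment over 12 comparisons. The exons of Nfkbib overlap those of Sirt2 and Ccer2 on the other strand, and whether counting used strand is not given in the sources used here.

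**Figure D4:**
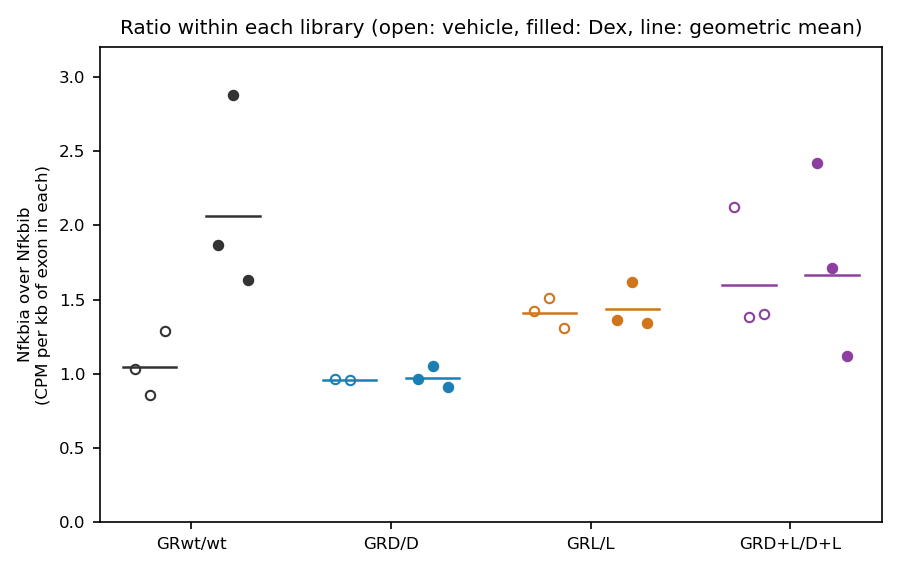
Ratio of Nfkbia to Nfkbib (CPM per kb of exon in each, linear axis from 0) within each library, with vehicle open, Dex filled and the geometric mean as a line. The GRwt/wt Dex libraries lie between 1.63 and 2.88 and the GRwt/wt vehicle libraries between 0.856 and 1.29, while the treatments overlap in each mutant.

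Levels were next compared between genotypes without ligand. Against GRwt/wt vehicle, GRL/L vehicle had 2 of the 10 genes called, Nfkbiz higher and Nfkbib lower, where 7.78% of all genes were called. GRD+L/D+L vehicle had 1 called, Nfkbiz, also higher, where 8.32% of all genes were. GRD/D vehicle had 0 called, beside 0.00635% of all genes, with 5 of 10 at an unadjusted p under 0.05 (12.4% of all genes) and 1, Nfkbiz, by DESeq2, which called 0.206% of the genes it gave an adjusted p. Of those 5, Rela, Relb, Nfkbia and Nfkbib were lower in GRD/D (−0.36, −0.53, −0.60 and −0.49), and without GRwt/wt vehicle replicate 1 (−0.085, −0.24, −0.34 and −0.21) or either GRD/D vehicle library the count was 1, Nfkbiz (9.09, 6.39 and 3.59% of all genes). It was 7 without GRwt/wt vehicle replicate 2 (20.8%) and 8 without replicate 3 (28.3%). By adjusted p alone, 5 of the 10 passed in GRL/L (23% of all genes), and the double mutant had 3 (20.4%). All 3 comparisons share the GRwt/wt vehicle libraries. Where genotypes are said below not to overlap, the share of all genes without overlap was not counted.

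Nfkbiz gave the clearest genotype pattern. In GRL/L it measured 46.8, 48.1 and 41.6 CPM with vehicle (45.5 ± 3.41, SD, n = 3), beside 11.9 ± 4.05 in GRwt/wt vehicle. Every GRL/L library was above every GRwt/wt library of either treatment. The log2 fold change in vehicle was 1.93 ± 0.26 (3.81-fold; adjusted p 0.000187), it was 1.68 without GRwt/wt vehicle replicate 1, and it was called in 33 of 33 alternatives, in which it ranged from 1.68 to 2.20.
In GRD+L/D+L vehicle it measured 29.1, 19.2 and 31.4 CPM, again above all GRwt/wt vehicle libraries. The log2 fold change was 1.15 ± 0.25 (adjusted p 0.00523), and leaving out replicate 1 of GRwt/wt vehicle lowered it to 0.92 (adjusted p 0.0104), which ended the call. It was called in 31 of 33 alternatives, the other loss being the fit of only the genotypes compared (1.18, adjusted p 0.0798). In GRD/D vehicle both libraries were above all GRwt/wt vehicle libraries too, yet the log2 fold change of 1.41 ± 0.27 did not pass (adjusted p 0.198). It passed in 2 of 33 alternatives, without GRwt/wt vehicle replicate 3 (1.68, adjusted p 0.0126) and with DESeq2 (1.44, adjusted p 0.0017).

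Nfkbib measured 11.4, 11.8 and 11.8 CPM in GRL/L vehicle, below every GRwt/wt vehicle library. The log2 fold change was −1.01 ± 0.19 (adjusted p 0.0017), and −0.74 without GRwt/wt vehicle replicate 1 (adjusted p 0.00356), so that the gene passed by adjusted p but no longer by size. Its adjusted p was at most 0.05 in 33 of 33 alternatives and its size sufficed in 20; it was −0.55 with GC and length offsets. In GRD+L/D+L vehicle Nfkbib measured 12.4, 15.0 and 14.0 CPM, with a log2 fold change of −0.77 ± 0.19 (adjusted p 0.0114), or −0.25 with GC and length offsets (adjusted p 0.259). Neither mutant overlapped GRwt/wt vehicle.

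The other passes by adjusted p in GRL/L vehicle were lower values of Rela (−0.54, adjusted p 0.0172), Relb (−0.54, adjusted p 0.041) and Tnip1 (−0.53, adjusted p 0.0442). All of these genes are rich in GC, and without GRwt/wt vehicle replicate 1 none passed (−0.27, −0.26 and −0.15, with adjusted p 0.051, 0.227 and 0.262). Of 33 alternatives, Rela passed in 27, Relb in 17 and Tnip1 in 10, so passes were also lost in fits that kept that library. The part of GC content was not tested. The other pass of GRD+L/D+L vehicle was Nfkb1, at 79.7, 75.3 and 73.4 CPM beside 62.7, 47.8 and 69.2 in GRwt/wt vehicle, with no overlap. Its log2 fold change of 0.35 ± 0.12 (adjusted p 0.0484) turned to −0.17 with GC and length offsets (adjusted p 0.669).

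Tnfaip3 measured 8.65, 11 and 8.71 CPM in GRD+L/D+L vehicle and 2.92, 2.42 and 8.83 CPM in GRwt/wt vehicle. The GRwt/wt library that reached into the GRD+L/D+L range was replicate 3, with the highest macrophage marker sum of the series, whose part in the value was not tested. The log2 fold change was 0.99 ± 0.36 (adjusted p 0.0595), and 1.88 without that library (adjusted p 0.000189). In GRL/L vehicle it was 0.48 ± 0.36 (adjusted p 0.338), from 6.72, 6.57 and 6.57 CPM, and 1.35 without GRwt/wt vehicle replicate 3 (adjusted p 0.00112). Macrophage markers summed to 38.4 and 17.5 CPM in GRwt/wt vehicle replicates 1 and 2, and to 288 to 653 CPM in GRL/L vehicle. They summed to at most 76.6 CPM in the GRD+L/D+L libraries, and their part in the values of either mutant was not tested.

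With Dex, GRL/L had 2 of the 10 genes called against GRwt/wt (2.59% of all genes), and the same 2 passed by adjusted p alone (5.47%). The contrast sets Dex libraries against each other, but the filter, scaling and spread came from all 23 libraries, vehicle included. Nfkbiz was higher, at 44.3, 46.9 and 42.0 CPM in GRL/L, with no overlap and a log2 fold change of 1.40 ± 0.25 (adjusted p 0.00467). It was called in 33 of 33 alternatives. Nfkbia was lower, at 11.9, 12.4 and 11.8 CPM in GRL/L beside the GRwt/wt Dex values given above, again with no overlap. Its log2 fold change was −1.01 ± 0.23 (adjusted p 0.0154), it ranged from −1.22 to −0.80 over the alternatives, and it was called in 24 of 33. Its call was lost on leaving out GRwt/wt Dex replicate 1 or 2 or any GRL/L Dex library. It was lost too with the replicate block, GC and length offsets, at least 10 counts in every library, or only the genotypes compared. Without ligand, Nfkbia was also lower in GRL/L, at −0.58 ± 0.23 (adjusted p 0.0722), and the vehicle libraries did not overlap either.

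In GRD/D with Dex, 0 of the 10 were called (0.254% of all genes), with 1 at an unadjusted p under 0.05, that of Nfkbia (11.1% of all genes), and none by DESeq2 with the size rule. Nfkbia was there at −0.92 ± 0.23 (adjusted p 0.098) against GRwt/wt Dex, and at −1.13 without GRwt/wt Dex replicate 3 (adjusted p 0.0414). GRD/D and GRwt/wt did not overlap for Nfkbia with Dex. Nfkbiz, which both GRD/D vehicle libraries held above GRwt/wt, was at 0.18 ± 0.25 with Dex (adjusted p 0.931), from 0.00 to 0.35 over the alternatives, and the libraries overlapped. In GRD+L/D+L with Dex, 0 were called (2.75% of all genes), with 3 at an unadjusted p under 0.05, beside 20.9% of all genes, and none by DESeq2. The 3 became 1 to 6 with a library left out (14.8 to 20.3% of all genes where it was 1, and 35% where it was 6), lowest without GRwt/wt Dex replicate 2 or 3 or GRD+L/D+L Dex replicate 2 and highest without GRwt/wt vehicle replicate 1. Nfkbiz was at 0.74 ± 0.25 there (adjusted p 0.0946), Tnfaip3 at 0.85 ± 0.36 (adjusted p 0.187) and Nfkbia at −0.50 ± 0.22 (adjusted p 0.212).

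**Figure D5:**
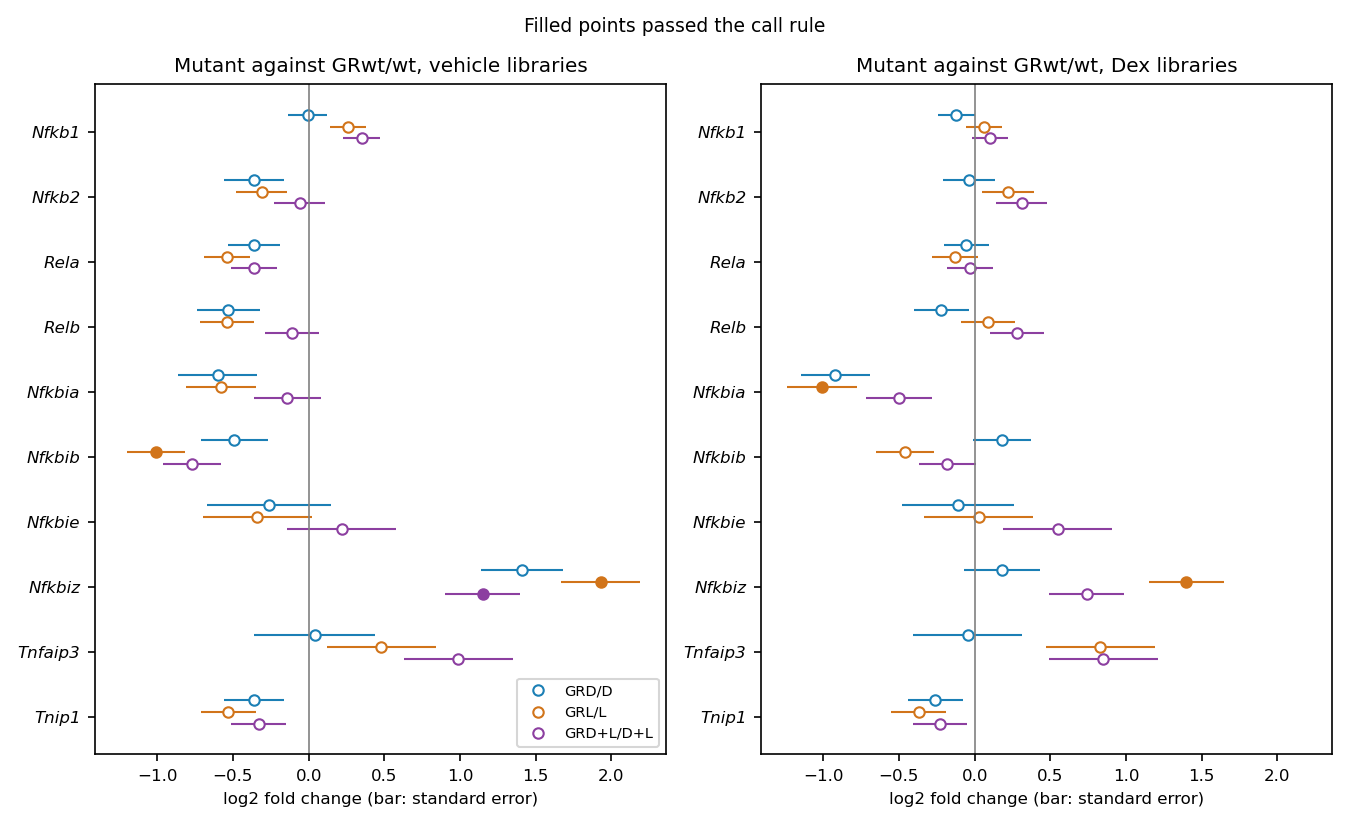
Log2 fold change of each mutant against GRwt/wt (x axis, point and standard error) in vehicle libraries (left) and Dex libraries (right), with called values filled. Nfkbiz is called in GRL/L under both treatments (1.93 and 1.40) and in GRD+L/D+L vehicle (1.15), Nfkbib in GRL/L vehicle (−1.01) and Nfkbia in GRL/L Dex (−1.01).

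Nfkbie was uneven among the libraries of the double mutant, under both treatments. It measured 15.2 and 16 CPM in GRD+L/D+L replicate 1 with vehicle and with Dex, whereas the other 4 GRD+L/D+L libraries lay between 6.13 and 6.67 CPM. Bcl3, another nuclear IkB-family gene, had the same pattern in that genotype, with 14.4 and 11.5 CPM in replicate 1 and 2.13 to 4.12 CPM in the others. Bcl3 was picked out after its values were seen.

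The rest of the pathway was read from lists of 32 receptors, adaptors and kinases, 16 further subunits and regulators, and 32 widely known target genes. All 32 upstream genes were tested, and in every Dex contrast and every difference of response 0 were called. In GRwt/wt with Dex, their median log2 fold change was −0.062, beside −0.0093 over all genes, and it ran from −0.12 without vehicle replicate 2 to 0.04 without vehicle replicate 3. Only Cd40, a receptor of the TNF family, was called in any contrast, being lower in GRD+L/D+L vehicle, where 8.32% of all genes were called (0.155, 0.0915 and 0.471 CPM, beside 0.993, 2.52 and 1.90 in GRwt/wt vehicle). Its log2 fold change was −2.93 ± 0.69 (adjusted p 0.00842), and it was called with any library left out. Of the further regulators, 15 were tested and 0 were called in all 13 contrasts.

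Of the target genes, 25 were tested and 0 were called in any of the 4 Dex contrasts or the 3 differences of response. Between genotypes 2 were called in GRL/L Dex, 2 in GRD+L/D+L vehicle and 2 in GRD+L/D+L Dex, beside the shares of all genes given above for these comparisons (2.59, 8.32 and 2.75%). With Dex in GRwt/wt, their median log2 fold change was −0.50, beside −0.0093 over all genes, while GRD/D stood at −0.25, GRL/L at −0.0020 and the double mutant at −0.056. The GRwt/wt median was −0.11 without vehicle replicate 3, the library with 4430 CPM of macrophage markers (0.068 over all genes), −0.20 without vehicle replicate 2, and −0.48 without vehicle replicate 1. It was 0.00 without vehicle replicates 1 and 3 (13 of 27 tested targets lower, −0.0042 over all genes), and ran from −0.70 to −0.34 with a Dex library left out. Leaving out vehicle replicate 2 also brought 3 of the targets and 1 of the upstream genes past the call rule with Dex in GRwt/wt, where 2.39% of all genes were then called, and no other GRwt/wt library did. The part of macrophage markers in it was not tested. Between genotypes, Gadd45b, a stress-induced gene of survival signalling, was lower in GRL/L Dex, at 14.4, 17.4 and 14.9 CPM beside 43.4, 24.3 and 26.7 in GRwt/wt Dex. These did not overlap, and the log2 fold change was −1.02 ± 0.24 (adjusted p 0.0225). The call was lost without GRwt/wt Dex replicate 1 (−0.72, adjusted p 0.107) and without any 1 of the GRL/L Dex libraries (adjusted p 0.0619 to 0.0941). In vehicle Gadd45b was lower in GRL/L too, at −0.96 ± 0.24 (adjusted p 0.00933), short of the call by size alone. It lay there between 15.2 and 19.8 CPM, beside 25.8 to 43.7 CPM in GRwt/wt vehicle. Saa3, an acute-phase gene, was called lower in GRL/L Dex, GRD+L/D+L vehicle and GRD+L/D+L Dex (adjusted p 0.0315, 0.027 and 0.0261). It varied within GRwt/wt from 1.10 to 15.6 CPM and reached at most 0.163 CPM in GRD+L/D+L, on 0 to 3 counts a library. These calls held in 18, 19 and 20 of the 23 fits that left out a library, and were lost without GRwt/wt Dex replicate 2 (adjusted p 0.118 in GRL/L, and 0.084 for the double mutant), GRwt/wt Dex replicate 3 in GRL/L (0.0526), GRwt/wt vehicle replicate 3 (0.0578), and several mutant libraries. Il6, a cytokine of inflammation, was called higher in GRD+L/D+L Dex, at 0.163, 1.15 and 0.287 CPM beside 0.101, 0 and 0 in GRwt/wt Dex (adjusted p 0.0412), and kept the call in 10 of those 23 fits. Its mean of 0.235 CPM lay below the level set for naming, and it was added after its values were seen. Bcl2a1b, a survival gene with near-identical copies, was called lower in GRD+L/D+L vehicle (adjusted p 0.0297), yet its level in GRwt/wt vehicle was 0, 0 and 7.52 CPM, with all of it in the library of high macrophage markers, and the call was lost with that library or any 1 of the GRD+L/D+L vehicle libraries left out.

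Over the 23 libraries, the genes whose log2 CPM was most like that of Nfkbiz were Atg2b (Pearson r 0.923, or 0.896 without GRwt/wt vehicle replicate 1), Airn (0.906, or 0.869) and Gm47260 (0.905, or 0.873). For Nfkbia they were Mknk2 (0.850, or 0.832), Idh2 (0.829, or 0.803) and Cradd (0.819, or 0.789), and for Nfkbib Eif6 (0.966, or 0.943), Fkbp8 (0.957, or 0.946) and Ndufb7 (0.955, or 0.928). Among the NF-kB genes themselves, Nfkbib and Nfkbiz ran in opposite directions (r −0.81, or −0.729 without that library), and Nfkb1 and Tnfaip3 together (0.757, or 0.763). Rela and Tnip1 had an r of 0.88, or 0.616 without that library, and Nfkb2 and Rela 0.647, or 0.0546. These are descriptions over libraries that share genotype, culture and base composition.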

How the data were processed

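Libraries were prepared with a TruSeq kit from total RNA and sequenced on a NovaSeq instrument. Per the submitters' processing notes, reads were mapped with HISAT2 2.1.0 to mm10 (GRCm38) and counted with featureCounts 2.0.0; the study's methods state that only uniquely mapped reads were kept and DESeq2 was used. The annotation release and strandedness are not given in the sources used here, so counts of Nfkb2 (overlapping Psd) and Nfkbib are uncertain. The deposited values, as the authors left them, are raw counts per Ensembl gene, and 0 columns were left unused.

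Symbols, coordinates and exon lengths came from GENCODE M21 (55227 of 55487 identifiers found). The main fit was edgeR 4.0.16 (R 4.3.3): all 23 libraries, a term per group, TMM, filterByExpr, prior count 0.125, the quasi-likelihood test and Benjamini-Hochberg adjustment over the 15748 genes tested, for 13 contrasts. Group errors are SDs over libraries. The code was tested on simulated data with known changes. The genes and lists were chosen with earlier results of these data known; all 10 genes were named, from each list at most 5 called genes per contrast of at least 1 CPM on average, and for 3 genes the 3 most alike by Pearson r. Leaving out GRwt/wt vehicle replicates 1 and 3 together was added after seeing the data. Libraries of a group never matched within counting noise (lowest mean chi-square 8.73). Same-numbered vehicle and Dex libraries deviated together in GRL/L (correlations 0.322 to 0.644) and GRD+L/D+L (0.652 to 0.887), not throughout GRwt/wt (−0.026 to 0.548) or GRD/D (−0.199 and 0.283).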

Additional observations from a re-analysis of the deposited data

How the results depend on the processing

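Each comparison was repeated under 34 alternatives, among them RLE and upper-quartile scaling, other filters, DESeq2 1.42.0, GC and length offsets, and each of the 23 libraries left out. In the 4 Dex contrasts, the 3 differences of response and GRD+L/D+L against GRwt/wt in Dex, 0 of the 10 genes were called under every alternative. For GRL/L against GRwt/wt in vehicle, the main count of 2 became 5 by adjusted p alone and 1 with RLE scaling, no filter, at least 10 counts in every library, GC and length offsets or DESeq2 (3.36 to 9.08% of all genes called in these 5), and it ranged from 1 to 3 with a library left out (5.04 to 17.1%). For GRD+L/D+L in vehicle, the count of 1 became 3 by adjusted p alone, 0 with only the genotypes compared, 2 with DESeq2 and 2 on dropping replicates 1 and 3 of GRwt/wt vehicle together (shares of all genes 0.754, 10.1 and 6.79% in these last 3), with a range of 0 to 2 on leaving out a library (3.73 to 12.8%). For GRD/D in vehicle it was 1 with DESeq2 (0.206%) and 0 to 1 with a library left out (0 to 2.4%), and in Dex 0 to 1 (0.0318 to 1.95%). For GRL/L in Dex the count of 2 became 1 with at least 10 counts in every library, GC and length offsets or only the genotypes compared (0.696 to 2.85%), and 1 to 2 with a library left out (0.942 to 6.07%). With the replicate block it was also 1 (2.41%), since Nfkbia no longer reached the size rule (−0.98), and the block changed no other count of calls. Where a single library remained in a group, it was assumed to vary like the others. Log2 fold changes that turned sign with an adjusted p at or under 0.05 on either side were Nfkb1 in GRD+L/D+L vehicle (−0.17 with GC and length offsets) and Nfkb2 there (−0.25 to 0.33 with a library of the series left out and 0.34 without GRwt/wt vehicle replicates 1 and 3). Another 138 of 4290 single values changed sign with an adjusted p above 0.05 both before and after the change. Upper-quartile scaling shifted the median of all genes by −0.12 (GRL/L) and −0.15 (GRD+L/D+L) with vehicle, and GC and length offsets shifted it by 0.11 and 0.12 in GRD+L/D+L with vehicle and Dex. The causes of these changes were not tested. Tnfaip3, the gene with the lowest counts (45 to 240 a library), had standard errors of 0.36 to 0.54, which hold both counting error and the spread between libraries.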
